A study of Saccharomyces cerevisiae with 5 samples.

Results

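The signal recognition particle (SRP) of budding yeast and its receptor were followed here through the ratios of their transcripts between RNA precipitated with zz-tagged Yra1 and RNA precipitated with zz-tagged Mex67. The 8 genes encode the 6 protein subunits of the particle (SRP14, SRP21, SRP54, SRP68, SRP72 and SEC65) and the 2 subunits of the receptor (YDR292C, which encodes Srp101p, and YKL154W, which encodes Srp102p). They were chosen by gene symbol from the 5539 genes on the arrays, with ratios of these arrays already known, among them those of SRP72, below 0 on every array. The ratios below are therefore a description, and no test of these genes is made.

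SRP binds the signal sequence of a nascent protein as it leaves the ribosome, slows translation and brings the ribosome to the endoplasmic reticulum (ER). There the receptor passes the ribosome to the Sec61 channel, through which the protein enters or crosses the membrane. The particle also holds an RNA, scR1 in yeast, whose gene SCR1 was not analysed here. Most of the protein subunits join the RNA in the nucleus before the particle is exported to the cytoplasm.

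Each of the 5 arrays compared a zzYra1 precipitate (channel 1) with a zzMex67 precipitate (channel 2) of Saccharomyces cerevisiae. The zz tag is an antibody-binding part of protein A, used to recover a protein with what is bound to it. Yra1 is a nuclear RNA-binding protein that helps to load Mex67, the main mRNA export receptor, onto mRNA. The labels give no strain, genotype, growth condition or culture, so p-values cover no more than array-to-array spread, and that spread may be technical. Each ratio compares the precipitates with each other only. Replicates 2 to 5 lay on 1 platform with 2 neighbouring spots for each member (16 spots in all), and replicate 1 on another with 11 spots for the 8 genes. All values are log2 ratios relative to the array median, averaged over the spots of a gene. The sources used here state neither the numerator of the ratio nor the dyes. "Below" and "above" 0 refer to the deposited ratio, not to a precipitate.

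The arrays shared little of their pattern across genes. Over all genes Pearson r between replicates 2 to 5 ran from -0.03 to 0.13, and between replicate 1 and these from -0.06 to 0.04, across genes that are not independent replicates. Spots of different genes printed side by side correlated with r from 0.40 to 0.65 on the 5 arrays. The cause of this likeness was not tested, and the values of the surroundings are given beside the members' own.

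Of the 8 genes, 6 had a mean below 0 over replicates 2 to 5 and 2 a mean above 0, where 51.3% of all genes had a mean below 0. The low means were those of 5 of the 6 particle genes and of 1 of the 2 receptor genes. The median of the 8 genes on replicates 2 to 5 was -0.97, -0.01, -0.57 and -0.44 in turn, with a mean of -0.50 ± 0.40 (SD, n = 4). The median of all genes lay between -0.01 and 0.03 on the same arrays. On replicate 3 the 8 genes thus sat at the middle of all genes, with 4 below 0 and 4 above, and on the other 3 arrays their median was lower. This order of the arrays changed with values taken relative to the surrounding spots, as given below.

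SRP21, SRP68 and SRP72 were below 0 on all 4 arrays, 3 of 8 members, where 7.13% of all genes were. SEC65 was above 0 on all 4, 1 of 8, where 7.11% of all genes were. In limma's fit over all genes, 0 members and 0.0% of the 5539 genes passed an adjusted p of 0.05, and 2 members (SRP68 and SRP72) were among the 5.42% (300 genes) with an unadjusted p under 0.05. Because the genes were chosen with this contrast known, nothing is read from these counts.

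The means ordered the genes as SRP21, SRP68, SRP72, YDR292C, SRP54, SRP14, YKL154W and SEC65, from -1.68 to 0.46. The 4 values of each gene overlapped with those of the next in this order, so no neighbouring pair was separated beyond the spread between arrays. SEC65 lay above every value of SRP21, SRP68 and SRP72.

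**Figure D1:**
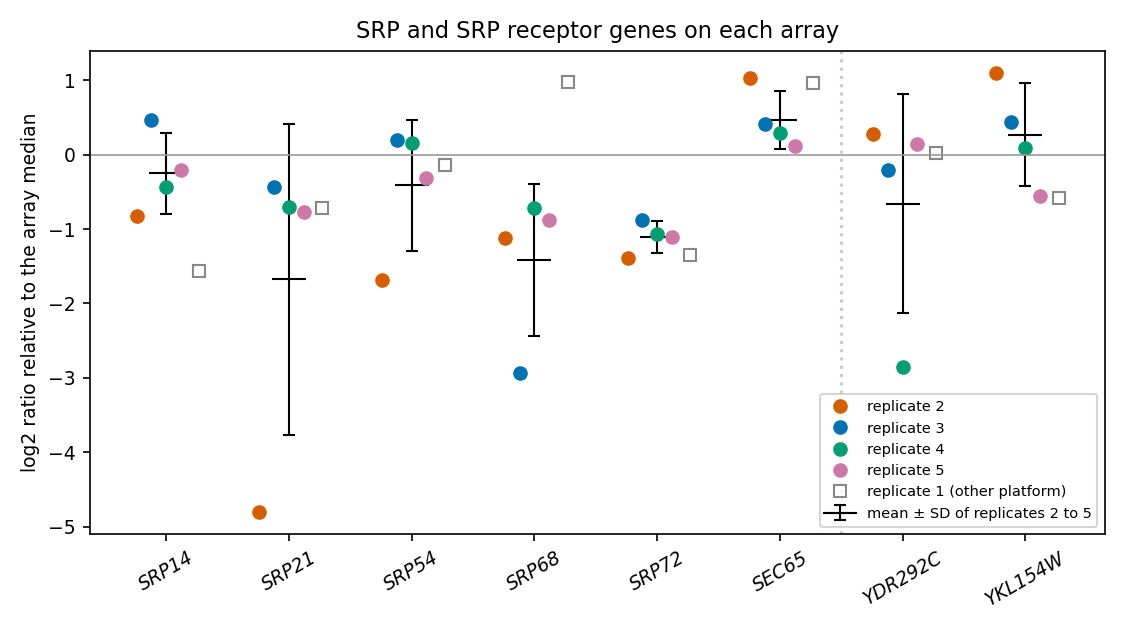
Log2 ratio relative to the array median (vertical axis) of the 6 particle genes and, right of the dotted line, the 2 receptor genes on replicates 2 to 5 (filled circles) and on replicate 1 (open squares), with the mean and SD of replicates 2 to 5 as black bars. SRP72 keeps between -1.39 and -0.88 on the 4 arrays, while SRP21 on replicate 2 and YDR292C on replicate 4 lie far below their other values.

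SRP68 and SRP72 encode the largest subunits, which bind each other and anchor on the RNA. SRP72 was at -1.39, -0.88, -1.06 and -1.11 on replicates 2 to 5 and at -1.35 on replicate 1. All 5 values lay close together, and the mean over replicates 2 to 5 was -1.11 ± 0.21 (SD, n = 4), a 2.16-fold difference. On each of these 4 arrays between 10.04% and 19.2% of all genes had a lower ratio, so the gene was low without being extreme on any of them. A smaller SD was found for 2.82% of genes, and the median SD of a gene was 0.77. Among the 5539 genes SRP72 was the 1 gene whose SD was no larger than 0.21 and whose mean was as far from 0. In all, 23 genes, SRP72 included, were at or below -0.88 on all 4 arrays. Both counts use limits taken from SRP72 itself, a gene chosen with its ratios known, so nothing is read from them.

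The evenness of SRP72 did not extend to its surroundings. Its 2 spots agreed within 0.19 on every array, but the spots around them had a median of -1.88 on replicate 2 and of 0.65, 0.11 and 0.77 on replicates 3, 4 and 5. Relative to these surroundings SRP72 was at 0.49 on replicate 2 and at -1.53, -1.17 and -1.88 on replicates 3 to 5. It was thus higher than its neighbours on replicate 2 and lower on the other 3 arrays. The mean with the local median removed was -1.02 ± 1.05 (SD, n = 4), almost the same mean with an SD that 87.7% of genes stayed under. On replicate 1 the gene was at -1.14 relative to its surroundings.

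SRP68 was at -1.12, -2.94, -0.72 and -0.89 on replicates 2 to 5. Replicate 3 was the lowest, with 0.072% of genes below SRP68, and both spots there were low (-2.82 and -3.05). The mean was -1.42 ± 1.03 (SD, n = 4), and -0.91 without replicate 3. On replicate 5 the 2 spots differed by 1.69, at -0.04 and -1.73. On replicate 2 its surroundings were at -1.02, so the ratio relative to them was -0.10, and on replicates 3 to 5 it was -2.29, -0.48 and -1.14. SRP68 held a value identical to that of a touching spot of another gene in 4 of its 8 spot values. Within 3 spots of a block's edge, 56.0%, 15.8%, 28.6% and 73.3% of spots on replicates 2 to 5 matched any touching spot. Nothing is therefore read from such counts, here or below. On replicate 1 SRP68 was at 0.98, opposite to its partner SRP72 and above 94.9% of genes, and adding that array moved its mean to -0.94.

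SRP21 and SRP14 encode the small subunits of the domain that in mammals delays elongation. SRP21 was at -4.80, -0.43, -0.70 and -0.78 on replicates 2 to 5. The mean of -1.68 ± 2.09 (SD, n = 4) was the lowest of the 8 genes and rested on replicate 2: without it the mean was -0.64. Both SRP21 spots on that array were low (-4.74 and -4.86) in surroundings at 0.01, and 0.24% of genes were lower. Relative to the surroundings SRP21 was at -4.81, -0.68, -0.05 and -1.31 on replicates 2 to 5, below its neighbours on every array. SRP14 was at -0.83, 0.47, -0.43 and -0.21, a mean of -0.25 ± 0.54. That mean was -0.06 without replicate 2 and -0.49 without replicate 3. On replicate 1 SRP14 was the lowest member, at -1.57 with 4.39% of genes lower, and adding that array moved its mean to -0.52. On replicates 2 to 5 its values followed the surroundings, which were at -0.42, 0.33, -0.50 and -0.34, and 5 of its 8 spot values were shared with a touching spot of another gene. With the local median removed the mean of SRP14 was -0.02 ± 0.26. These 2 genes, whose products work in the same domain, thus differed in how far their means stood from the surroundings. On replicate 4 both were close to them, SRP14 at 0.07.

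SRP54 encodes the GTPase that holds the signal sequence, the most conserved subunit. SRP54 was at -1.69, 0.19, 0.16 and -0.32 on replicates 2 to 5, with a mean of -0.41 ± 0.88 (SD, n = 4). The values lay on both sides of 0 and the low mean came from replicate 2, without which it was 0.01. The surroundings on that array were at -1.26. With the local median removed the mean was -0.14 ± 0.21.

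SEC65 encodes the subunit that corresponds to mammalian SRP19 and helps SRP54 onto the RNA. SEC65 was at 1.02, 0.42, 0.30 and 0.12 on replicates 2 to 5 and at 0.96 on replicate 1. It was the 1 member above 0 on all 5 arrays, with a mean of 0.46 ± 0.39 (SD, n = 4), a 1.38-fold difference. Without replicate 2 its mean was 0.28. Its surroundings were between -0.21 and 0.22. Relative to them SEC65 was at 1.03, 0.59, 0.08 and 0.33, a mean of 0.51 ± 0.41 that 94.8% of genes stayed under. The subunit genes of 1 particle therefore lay on both sides of 0, with SEC65 opposite to SRP21 on every array of the platform. With the sign of replicate 2 turned the mean of SEC65 was -0.05.

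**Figure D2:**
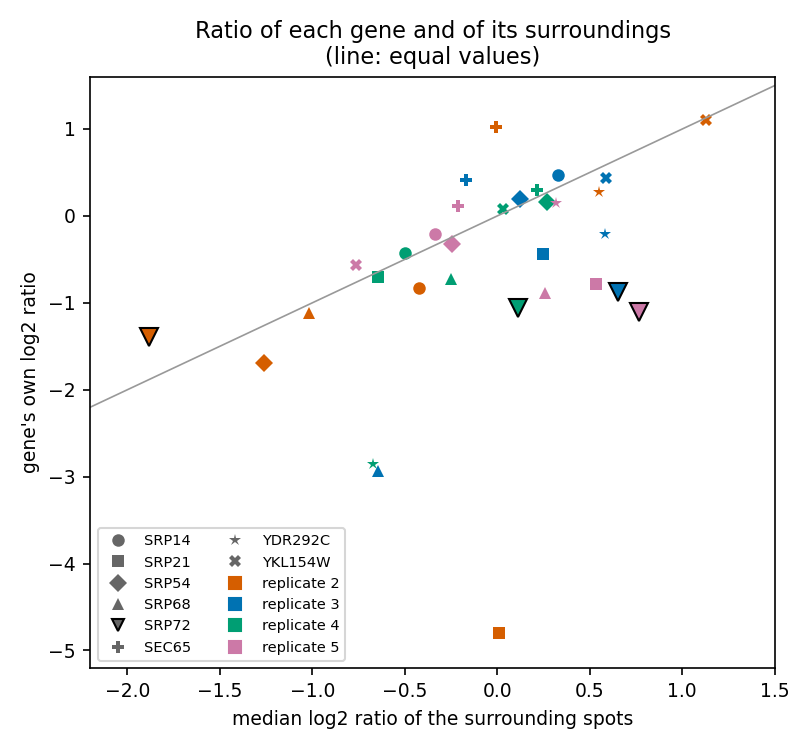
Each gene's own log2 ratio (vertical axis) against the median log2 ratio of the spots around it (horizontal axis) on replicates 2 to 5, both relative to the array median, with 1 symbol per gene and 1 colour per array. The line marks equal values: YKL154W and SRP14 lie along it, while SRP72 (outlined) lies above the line on replicate 2, where the surroundings are at -1.88, and below it on the other 3 arrays.

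The receptor genes showed no shared direction. YDR292C encodes the alpha subunit Srp101p, a GTPase that pairs with Srp54p, and YKL154W the beta subunit Srp102p, which spans the membrane. YDR292C was at 0.28, -0.21, -2.85 and 0.14 on replicates 2 to 5 and at 0.02 on replicate 1. Its mean of -0.66 ± 1.47 (SD, n = 4) rested on replicate 4 and was 0.07 without it. Both spots were low on that array, at -3.31 and -2.39, with the surroundings at -0.67. Relative to the surroundings YDR292C was below 0 on all 4 arrays, at -0.27, -0.79, -2.18 and -0.17. On replicate 3 its 2 spots differed by 1.32, at -0.86 and 0.45, or at -1.41 and -0.16 relative to the surroundings. YKL154W was at 1.10, 0.43, 0.09 and -0.56, a mean of 0.26 ± 0.69, which was -0.015 without replicate 2 and 0.54 without replicate 5. On replicate 1 it was at -0.58, and adding that array moved the mean to 0.09. On all 4 arrays at least 1 of its spots held a value identical to a touching spot, 7 of 8 spot values in all. Of these, 4 matched a spot of another gene, the measure used for SRP68 and SRP14. On that measure SRP54 had 3 of 8 and YDR292C 1 of 8. With the local median removed the mean of YKL154W was 0.02 ± 0.15, and 4.55% of genes had a smaller SD.

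With the local median removed the 8 genes differed in how far their means lay from 0. SRP21, SRP68, SRP72 and YDR292C had means of -1.71 ± 2.13, -1.003 ± 0.96, -1.02 ± 1.05 and -0.85 ± 0.92 (SD, n = 4). Between 0.56% and 4.59% of all genes had lower means. The SDs were close to these means in size or larger. On replicate 2 SRP68 was at -0.10 and SRP72 at 0.49. SRP21 was at -0.05 on replicate 4 and YDR292C at -0.17 on replicate 5. SEC65 lay on the other side of 0, at 0.51 ± 0.41. SRP14, SRP54 and YKL154W lay between -0.14 and 0.02. The median of the 8 genes was then -0.19, -0.42, -0.08 and -0.12 on replicates 2 to 5, with a mean of -0.20 ± 0.15 (SD, n = 4). Replicate 3, the highest with only the array median subtracted, was then the lowest. The part of the printing position in these means was not tested.

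**Figure D3:**
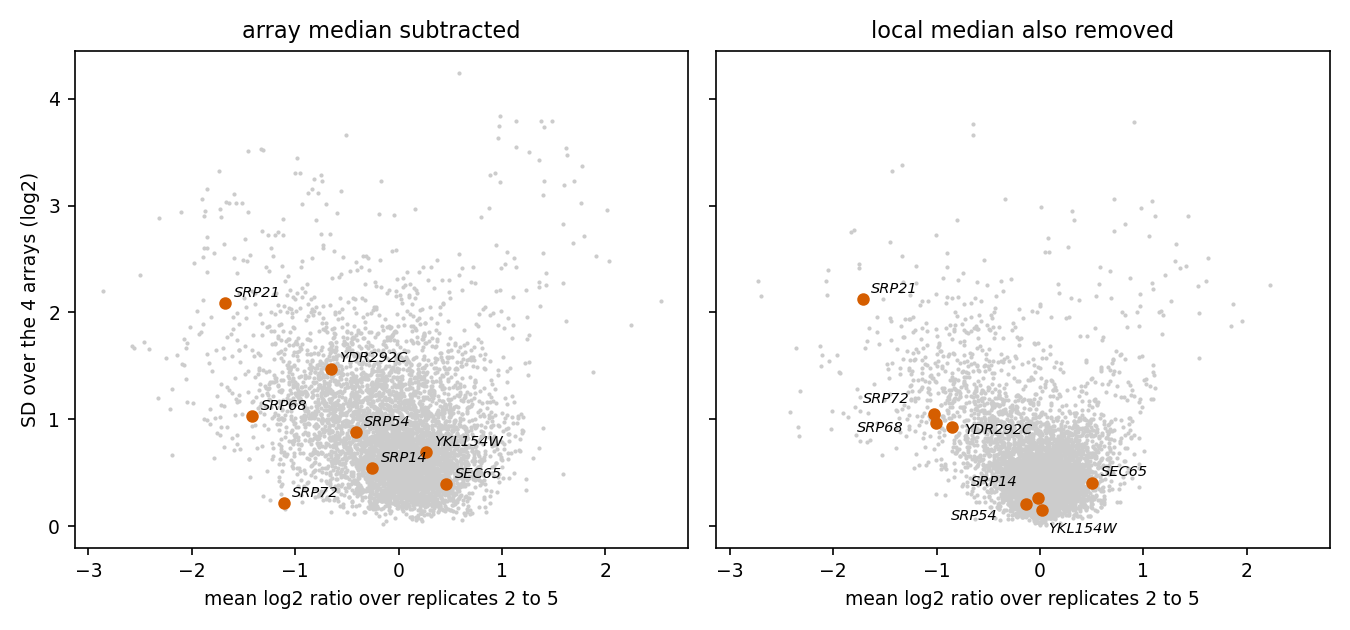
Mean log2 ratio over replicates 2 to 5 (horizontal axis) and SD over these arrays (vertical axis) of 5539 genes (grey) and the 8 SRP and receptor genes (orange), with the array median subtracted (left) and the local median also removed (right). SRP72 moves from an SD of 0.21 to 1.05 with nearly the same mean, and YKL154W and SRP54 move towards 0.

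On replicate 1 the median of the 8 genes was -0.36, beside -0.05 for all genes. There 5 members were below 0 and 3 above, where 52.8% of all genes were below 0. Of the 8 members 3 had a pair of distant spots on that platform, and the spots disagreed. SRP21 was at -2.66 and 1.21, YKL154W at -1.59 and 0.43, and SEC65 at 1.46 and 0.46. The low SRP21 and YKL154W spots lay 4 columns apart in 1 row of a block whose surroundings were at -1.14 and -1.02, and the high ones lay in another block with surroundings at 0.16 and 0.32. Over the 1100 genes with 2 spots on that platform, none of them side by side, the spots correlated with Pearson r = 0.08, and with r = 0.05 once the local median was removed. On replicates 2 to 5, where the 2 spots of a gene are neighbours, r was from 0.75 to 0.89 over 5510 genes, and from 0.66 to 0.77 with the local median removed. These are correlations across genes that share an array, a description only. The value of SRP72 on replicate 1 comes from 1 spot, as do those of SRP14, SRP54, SRP68 and YDR292C.

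**Figure D4:**
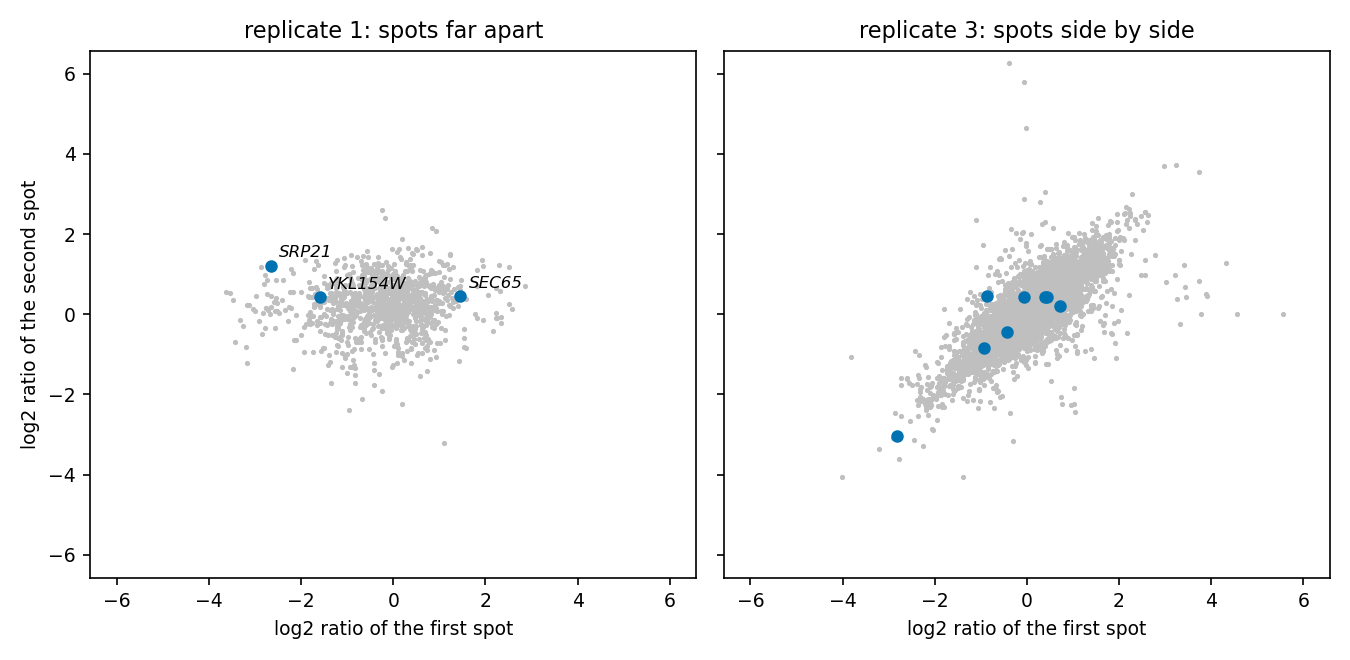
Log2 ratio of the second spot against that of the first for genes with 2 spots on replicate 1 (left, 1100 genes, spots at least 387 positions apart) and on replicate 3 (right, 5510 genes, neighbouring spots), with SRP and receptor genes in blue. The pairs follow each other on replicate 3 but not on replicate 1, where r is 0.08 and SRP21 is at -2.66 and 1.21.

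The 4 other genes nearest to SRP72, by the root mean square difference of their ratios over replicates 2 to 5, were GRE2 (0.235), ALG5 (0.236), FIG2 (0.243) and CUE5 (0.278 log2 units). ALG5 encodes a glucosyltransferase of the ER that feeds N-glycosylation, and was at -1.47, -1.24, -0.90 and -1.35. FIG2 encodes a cell wall protein of mating cells, GRE2 a reductase and CUE5 a ubiquitin-binding autophagy receptor. With the local median removed the means of the 4 were -0.83, -0.42, -0.89 and -0.11 in the order given, and on replicate 1 they were at 0.74, -0.25, 1.34 and 0.55. The likeness is over 4 arrays, and SRP72 and ALG5 shared the sign of replicate 1, while the other three were above 0 there.

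Other genes of targeting to the ER are set beside SRP as lists, with the 2 members of largest absolute mean named for each. A list median here is the median of a list's genes on each array, averaged over replicates 2 to 5. In each of these lists 0 genes passed limma's adjusted threshold, and no more than 2 had an unadjusted p under 0.05. Downstream of the receptor, the 5 genes of the Sec61 and Ssh1 channels had a list median of 0.02 ± 0.20 (SD, n = 4), with 2 means below 0 and 3 above. SEC61, the channel itself, was at -2.72, 0.25, -0.98 and 0.36, on both sides of 0, and SBH2, a small channel subunit gene, had a mean of 0.32 ± 0.76. The mean of SEC61 was -0.77 ± 1.43, and -0.10 ± 0.42 with the local median removed. The 4 signal peptidase genes had a list median of 0.17 ± 0.67, with SPC3 at a mean of 1.16 ± 1.03 and SPC1 at -0.32 ± 1.57. SPC3, a subunit gene of that peptidase, was above 0 on all 4 arrays, but its mean was 0.33 with the local median removed. The 8 measured oligosaccharyltransferase genes, which glycosylate proteins entering the ER, had a list median of 0.09 ± 0.23, with 3 means below 0 and 5 above. OST3 and OST4 were below 0 on all 4 arrays, with means of -1.70 ± 1.66 and -1.16 ± 0.90, or -0.46 and -0.73 with the local median removed.

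The 5 genes of the Sec63 complex and the chaperone BiP, which serve post-translational entry, had a list median of -0.06 ± 0.34 (SD, n = 4), with SEC63 at -0.99 ± 1.31 and SEC62 at -0.85 ± 1.01. The 6 genes of the GET pathway for tail-anchored proteins had one of -0.11 ± 0.37. MDY2, a GET chaperone gene also known as GET5, was at -1.93, -1.98, -0.73 and -3.55, the lowest mean of all these lists at -2.05 ± 1.16. Removing the local median brought MDY2 to -0.47. GET2, a membrane receptor gene of the pathway, was at 0.48 ± 1.36. The 3 SND genes had the lowest list median, -1.01 ± 1.31, with SND1 at -1.25 ± 2.39 and SND3 at -1.19 ± 1.39. Both were lowest on replicate 2, at -4.60 and -2.81. The nascent polypeptide-associated complex, which meets nascent chains at the ribosome exit, had 3 genes with a list median of 0.10 ± 0.51, with BTT1 at 0.22 ± 0.51 and EGD2 at 0.15 ± 0.54. The 5 measured cargo genes, whose products carry signal sequences, all had means above 0, though SUC2, named after its values were seen, was at -0.24 with the local median removed. Of these, PRC1, the gene of the vacuolar enzyme carboxypeptidase Y, was at 1.08, 0.59, 1.01 and 0.62, and the pheromone gene MF(ALPHA)1 had a mean of 0.37 ± 2.49. PRC1 had a mean of 0.83 ± 0.26, or 0.28 with the local median removed, and was at -0.04 on replicate 1.

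The 6 particle genes had a list median of -0.62 ± 0.47 (SD, n = 4), below 0 on 4 of 4 arrays, and of -0.31 ± 0.22 with the local median removed. The 2 receptor genes had one of -0.20 ± 0.87, or -0.42 ± 0.47 with the local median removed, and the 3 SND genes were at -0.39 ± 0.52 with it removed. The particle genes thus had a lower list median than the lists of channel, Sec63, signal peptidase, oligosaccharyltransferase, GET, nascent-chain and cargo genes in both settings, but not than the SND genes in either, nor than the receptor genes with the local median removed. The spread over arrays overlapped for some of these lists, such as GET at -0.11 ± 0.37, or -0.11 ± 0.26 with the local median removed. No difference between lists was tested, and this order describes genes picked with these ratios known.

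**Figure D5:**
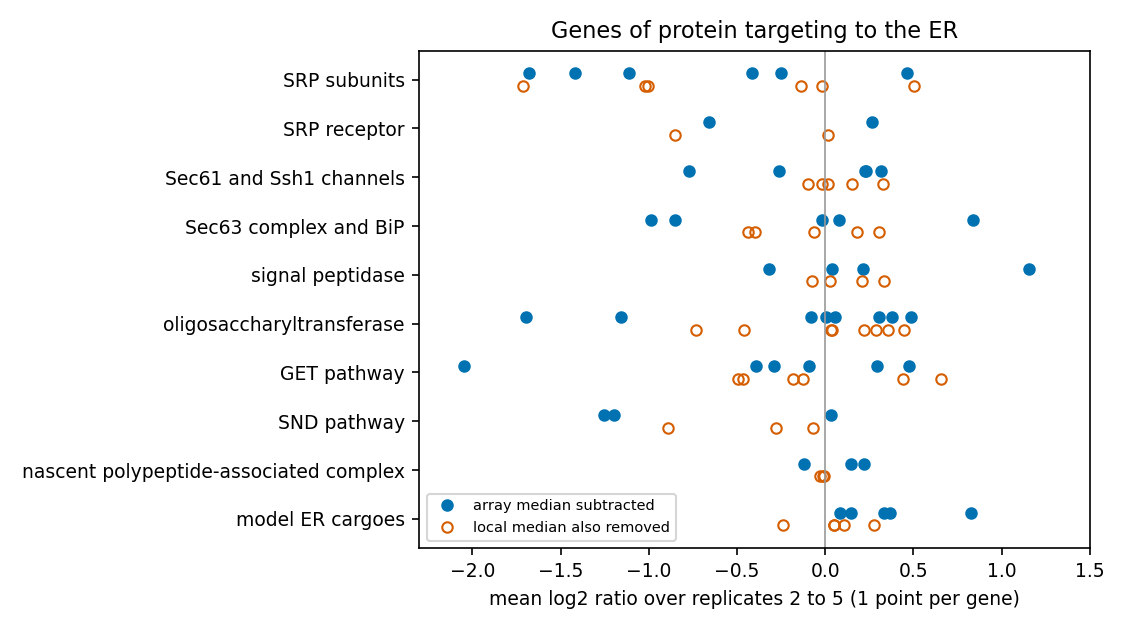
Mean log2 ratio over replicates 2 to 5 (horizontal axis) of each measured gene of the SRP, its receptor and 8 other lists of ER targeting (rows), with the array median subtracted (filled) and with the local median also removed (open). With the local median removed MDY2 of the GET pathway moves from -2.05 to -0.47, while SRP21 goes from -1.68 to -1.71, SRP72 from -1.11 to -1.02 and YDR292C goes from -0.66 to -0.85.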

How the data were processed

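The deposited tables hold the authors' log10 ratio of the 2 channels per spot. The base was worked out from the values: raised to base 10, 0.95 to 11.15% of 2000 spots per array gave a quotient of integers no larger than 1500, against at most 0.20% with base 2 or e. The sources used here do not name the scanner, background correction, normalization or build. No coordinates are printed. Values were converted to log2, centred on each array's median (1.96, -2.81, -1.45 and -1.59 for replicates 2 to 5 and 0.32 for replicate 1) and each gene took the mean of its spots. Genes came from the platform annotation, with symbols updated through RefSeq R64 (5534 of 5539 genes matched). Replicates were numbered in accession order. limma 3.58.1 (R 4.3.3, lmFit and eBayes against 0, two-sided, Benjamini-Hochberg, threshold 0.05) was fitted to all 5539 genes on replicates 2 to 5. The fit was also run on these values shuffled over genes within each array, with known changes added to some genes. Shuffling removes the likeness of neighbouring spots, and the outcome of that run is not used here. Tables used Python 3.11.15.

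Spot numbers gave blocks of 20 by 20 spots: spots 1 row apart correlated with r from 0.37 to 0.63 within a block and from -0.05 to 0.20 across a block border. The local median is that of the spots within 3 rows and columns in the same block, without the gene's own. A shared value is one identical to that of a touching spot, within 3 spots of a block's edge. How shared values arose was not tested.

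The members and lists were chosen with earlier results of these data known. Named are all 8 members, the 2 genes of largest absolute mean of each other list, and the 4 genes nearest to SRP72. OST5 and GAS1 were listed and not analysed here. Precision is limited by the number of arrays. Signal over background is unknown, since the files hold ratios. Alternatives changed the centring, spot summary, scaling, sign of replicate 2, added replicate 1, averaged replicates 3 and 5 (whose titles share a code of unstated meaning) and left out arrays.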

Additional observations from a re-analysis of the deposited data

Results flagged for a closer look

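Of 29 results looked at (genes named above and the median of the 8 genes), 3 had 1 array apart from the other 3 by Dixon's criterion. For independent normal values the criterion flags about 1 in 20. The share over all genes was not worked out, and these genes were named with their values known. Nothing is therefore read from the count. SRP21 on replicate 2 was at -4.80, beside -0.43 to -0.78 on the other arrays. YDR292C on replicate 4 was at -2.85, beside -0.21 to 0.28 on the other arrays. CUE5 on replicate 3 was at -0.42, beside -1.12 to -1.20 on the other arrays. For SRP21 and YDR292C both spots were low on that array.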

How the results depend on the processing

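In each setting run, limma gave 0 genes past the adjusted threshold (smallest adjusted p from 0.692 to 0.931), with 203 to 340 genes at an unadjusted p under 0.05. Without centring, which shifts all genes by -0.97 on average, these were 203 lower and 0 higher, beside 221 and 79 with it. The median of the 8 genes (-0.50) was -1.47 without centring and -0.010 with the sign of replicate 2 turned, and ran from -0.66 to -0.34 when 1 array was left out. Members below 0 on every array (3) numbered 1 without centring (10.6% of all genes), 0 with replicate 2 turned (6.43%), 2 with replicate 1 added (3.32%), and 3 to 4 when 1 array was left out, where 12.2 to 13.6% of genes were below 0 on the 3 arrays left. This count was set up after seeing the data. The 2 members with replicate 1 added were SRP21 and SRP72. The replicate 1 value of SRP21 is the mean of spots at -2.66 and 1.21. The labels give 1 orientation for all arrays, but not the numerator of the ratio. The deposited median of replicate 2 was 1.96, beside -2.81, -1.45 and -1.59 on replicates 3 to 5. Whether replicate 2 runs the other way was not tested, and it was kept as deposited. With its sign turned the means of 5 of the 8 genes changed sign: SRP14 to 0.16, SRP21 to 0.72, SRP54 to 0.43, SEC65 to -0.05 and YKL154W to -0.29, while SRP72 was at -0.42 and SRP68 at -0.86. Without centring SEC65 was at -0.51, YKL154W at -0.71 and SRP72 at -2.08 ± 1.84 (SD, n = 4). SRP21 was then the 1 member below 0 on every array. With the local median removed SRP21, SRP68 and YDR292C were below 0 on every array, but not SRP72, where 6.57% of all genes were. Leaving out the shared outer values, 6 members kept values on at least 3 arrays, and SRP14 and YKL154W did not. The scaling between arrays and the averaging of replicates 3 and 5 turned no member's mean. Taking the median of spots could not change a member, since the median of 2 spots is their mean. No paired analysis was possible because the arrays form 1 group. The cause of these changes was not tested.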
